A study of Mus musculus with 6 samples.

Results

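The mitochondrial ribosomal protein genes were described in 3 stable lines of B16-F1, a mouse melanoma cell line. They were taken as every gene whose single symbol in the array annotation is Mrpl or Mrps followed by a digit, which gave 76 of the 18193 genes with 1 symbol on the array. Of these, 47 had Mrpl symbols, which name proteins first assigned to the large subunit, and 29 had Mrps symbols, which name proteins first assigned to the small subunit. All 76 passed the filter on low signal, as did 12088 of all genes, and 34 had 1 probe set while 42 had several. Where a gene had several, the probe set with the highest mean signal over the 6 arrays stood for it. Mrpl30 and Mrpl53 were read by probe sets shared with another symbol and are not among the 76.

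The cells were of strain C57BL/6J and each line carried a lentiviral short hairpin RNA (shRNA), directed at the histone variant macroH2A1 or macroH2A2, or at GFP for the control. The lines with a hairpin to macroH2A1 or macroH2A2 are together called the macroH2A hairpin lines. Every line therefore expressed a hairpin from an integrated virus, and each target was represented by 1 line, so that effects of a line or its hairpin construct and of the target cannot be told apart. Each line was measured as 2 independent biological replicates, 1 array each, in medium with serum and without another treatment named. MacroH2A proteins are H2A variants with a large macro domain, and the comparisons ask how RNA levels differ when either is targeted.

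Mitochondrial ribosomes translate the few proteins encoded by mitochondrial DNA, which are membrane subunits of the respiratory chain and of ATP synthase. Their RNA comes from mitochondrial DNA, whereas all their proteins are encoded in the nucleus, made in the cytosol and imported. About the core inherited from bacteria they carry many proteins without a bacterial counterpart, and their genes are transcribed in practically every cell type, in melanoma cells too.

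All arrays had been scaled before deposit to a 2% trimmed mean of 150.0, and their median signals lay between 15.1 and 24.6. Macroh2a1 had signals of 1212.7 and 1262.4 on the control arrays, 444.2 and 319.1 with macroH2A1 shRNA and 1271.2 and 1170.5 with macroH2A2 shRNA. Both macroH2A1 shRNA arrays lay far below the others, a log2 difference of -1.67 (SE 0.17) from control with a limma adjusted p of 0.123, or 0.00120 with the replicate number as a block. Macroh2a2 had signals between 2.0 and 11.9 on the 6 arrays, below the filter, so its knockdown could not be checked, and the macroH2A2 shRNA line is named by its label. All 7 melanocyte marker genes passed the filter, with summed signals of 32809 to 33600 in control, 35749 to 41995 in macroH2A1 shRNA and 32714 to 37739 in macroH2A2 shRNA arrays. Only Tyr of the 7 had a lower mean log2 signal than control in the macroH2A hairpin lines. It read 1917.2 and 2031.7 in control, 1450.3 and 1443.2 in macroH2A1 shRNA and 1514.8 and 1851.1 in macroH2A2 shRNA. Of the marker lists of other cell types, 3 of 6 leukocyte, 2 of 5 fibroblast, 1 of 4 endothelial and 1 of 3 keratinocyte genes passed, none was listed at 0 on any array, and their summed signals ranged from 67.6 to 100.9, 96.4 to 169.5, 24.7 to 43.3 and 22.8 to 36.1.

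In the macroH2A1 shRNA line the mitochondrial ribosomal protein genes as a group lay close to the control line. Of the 76 genes, 49 had a higher mean log2 signal than control, or 64.5%, where 48.2% of all tested genes did. The median log2 difference was 0.030 over these genes and -0.0098 over all tested genes. In the macroH2A2 shRNA line 62 of the 76, or 81.6%, had a higher mean than control, where 47.5% of all tested genes did, and the median difference was 0.11 against -0.013. Between the macroH2A hairpin lines 52 genes were higher in macroH2A2 shRNA than in macroH2A1 shRNA, or 68.4% where 49.9% of all tested genes were, with a median of 0.056, and 24 were lower where 50.1% of all genes were. Of the 7421 tested genes at least as bright as the dimmest of the 76, 53.6% were above control in macroH2A1 shRNA and 53.1% in macroH2A2 shRNA. Their median difference was 0.015 in both lines. Between the macroH2A hairpin lines 50.6% of them were higher in macroH2A2 shRNA, with a median of 0.0023. The comparisons of both lines with control share the same 2 control arrays, so that a low or high control array enters both.

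No single gene passed the test in any of the comparisons. With limma and a Benjamini-Hochberg adjustment over all 27025 tested probe sets, 0 of 76 genes had an adjusted p under 0.05 in either direction in each of the 3 comparisons, and the share over all genes was 0% higher and 0% lower. The smallest adjusted p of these genes was 0.880 for macroH2A1 shRNA against control, 0.929 for macroH2A2 shRNA against control and 1 between the macroH2A hairpin lines. With the replicate number as a block the smallest were 0.171, 0.156 and 0.505, again 0 of 76, while the same fit called 0.132% of all genes higher and 0.141% lower in the first comparison and 0.0910% and 0.108% in the second. Between the macroH2A hairpin lines that fit called 0.00827% of all genes higher and 0% lower. The standard error of a gene's log2 difference ran from 0.11 to 0.34 with a median of 0.16, and the median 95% interval reached 0.37 to either side of the estimate, so differences smaller than that were within the error for most of these genes.

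At an unadjusted p under 0.05, 2 of the 76 genes were higher and 0 lower in macroH2A1 shRNA than in control, beside 2.41% and 3.11% of all genes. For macroH2A2 shRNA against control these were 6 higher and 1 lower, beside 1.84% and 3.33%. Between the macroH2A hairpin lines 1 was higher and 1 lower in macroH2A2 shRNA, beside 1.46% and 1.76%. The block moved these counts to 8 and 0 in the first comparison (4.39% and 5.42% of all genes), 7 and 1 in the second (3.76% and 6.42%) and 1 and 1 in the third (3.17% and 3.62%). A second description counts genes whose 2 arrays in one line lie wholly above or below the 2 in the other. By this count 12 of the 76 genes were higher and 8 lower in macroH2A1 shRNA than in control, where 15.2% and 16.8% of all genes were. For macroH2A2 shRNA 19 were higher and 4 lower than control, where 15.0% and 18.4% of all genes were. Between the macroH2A hairpin lines 18 were higher and 5 lower in macroH2A2 shRNA, where 15.1% and 16.0% were. Of the 7421 genes at least as bright as the dimmest of the 76, 1403 were higher and 1080 lower in macroH2A1 shRNA than control. For macroH2A2 shRNA against control these were 1294 and 1208, and between the macroH2A hairpin lines 1090 and 1160.

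**Figure D1:**
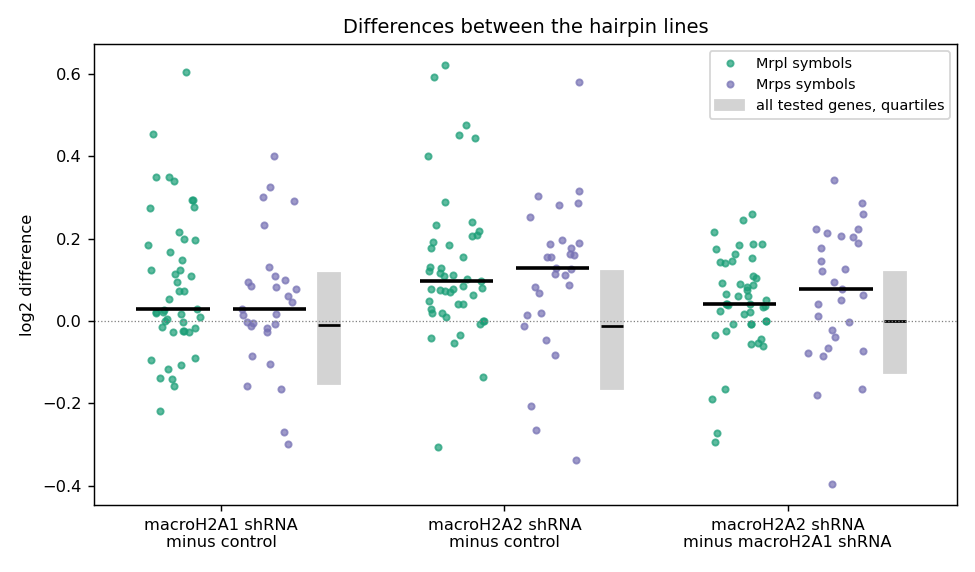
Log2 differences of the 76 genes in the 3 comparisons, 1 point a gene, split by Mrpl and Mrps symbols, with black lines at the medians and grey boxes from the lower to the upper quartile of all 12088 tested genes. The points of the macroH2A2 shRNA comparison lie mostly above 0, 62 of 76, and the widest differences there run from -0.34 to 0.62.

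The arrays of 1 line differed from each other by as much as the lines did. For each gene the log2 signal on an array was set against the gene's mean over the 6 arrays. The median of this deviation was -0.15 and 0.057 on the 2 control arrays, -0.066 and 0.065 on the macroH2A1 shRNA arrays and 0.11 and 0.0023 on the macroH2A2 shRNA arrays. Control replicate 1 stood lowest, and the second control array stood about as high as the second macroH2A1 shRNA array. Of the 76 genes, 43 had their lowest value on control replicate 1 and 0 their highest, whereas 35 had their highest value on macroH2A2 shRNA replicate 1. Over all tested genes the same median deviations stayed between -0.014 and 0.031, and control replicate 1 was the highest of the 6 there. After quantile normalization the 6 medians of the ribosomal genes were -0.11, 0.036, -0.050, 0.052, 0.13 and -0.014 in the same order.

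**Figure D2:**
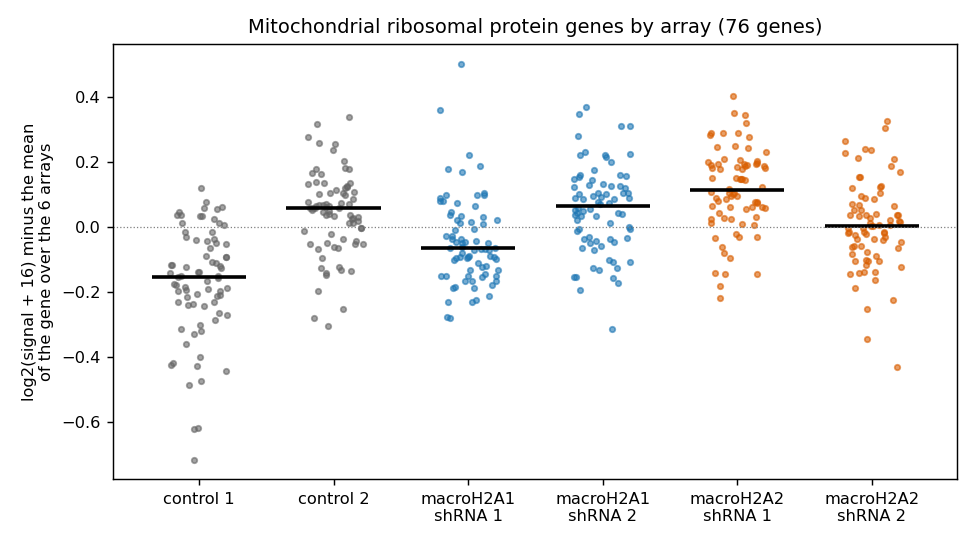
Log2 signal of each of the 76 genes on each array, less the gene's mean over the 6 arrays, with 1 point a gene and a black line at the median. The medians run from -0.15 on control replicate 1 to 0.11 on macroH2A2 shRNA replicate 1, and the 2 arrays of a line differ by as much as the lines do.

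The 2 replicate sets gave different pictures. Within the replicate 1 arrays the median log2 difference from control was 0.083 for macroH2A1 shRNA, with 55 of 76 genes above 0, and 0.24 for macroH2A2 shRNA, with 70 above 0. Within the replicate 2 arrays it was -0.0093, with 35 above 0, and -0.049, with 29 above 0. The direction of the group median therefore differed between the sets in both comparisons. For macroH2A2 shRNA 28 genes were above control in both sets and 5 below in both, whereas macroH2A1 shRNA had 32 and 17. Over all 12088 tested genes these counts were 2914 and 3323 for macroH2A2 shRNA, and 3356 and 3660 for macroH2A1 shRNA. Within replicate 1, 5621 of all tested genes were above control in macroH2A1 shRNA and 5391 in macroH2A2 shRNA. Within replicate 2 these were 6136 and 6265. Within the control line itself only 15 of 76 genes were higher on replicate 1 than on replicate 2, with a median difference of -0.22, while all tested genes had a median of 0.036. In the macroH2A1 shRNA line 22 were higher on replicate 1 (median -0.11), and in the macroH2A2 shRNA line 60 were (median 0.096), so the lines did not share 1 direction between replicates. Without control replicate 1 the count above control was 27 of 76 for macroH2A1 shRNA, with a median of -0.062, and 43 of 76 for macroH2A2 shRNA, with a median of 0.013. Without that control array the shift of the group thus changed sign for macroH2A1 shRNA and was near 0 for macroH2A2 shRNA. The cause of that array's low values was not tested. For macroH2A2 shRNA the shift also drew on its replicate 1 array, with a median deviation of 0.11 beside 0.0023 on replicate 2. The comparison between the macroH2A hairpin lines holds no control array, and it also differed between the sets, with a median of 0.16 and 64 of 76 genes above 0 within replicate 1, and of -0.052 and 32 of 76 within replicate 2. Without macroH2A2 shRNA replicate 1 this comparison had 41 genes above 0 with a median of 0.027, and without macroH2A1 shRNA replicate 1 it had 39 with a median of 0.014.

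**Figure D3:**
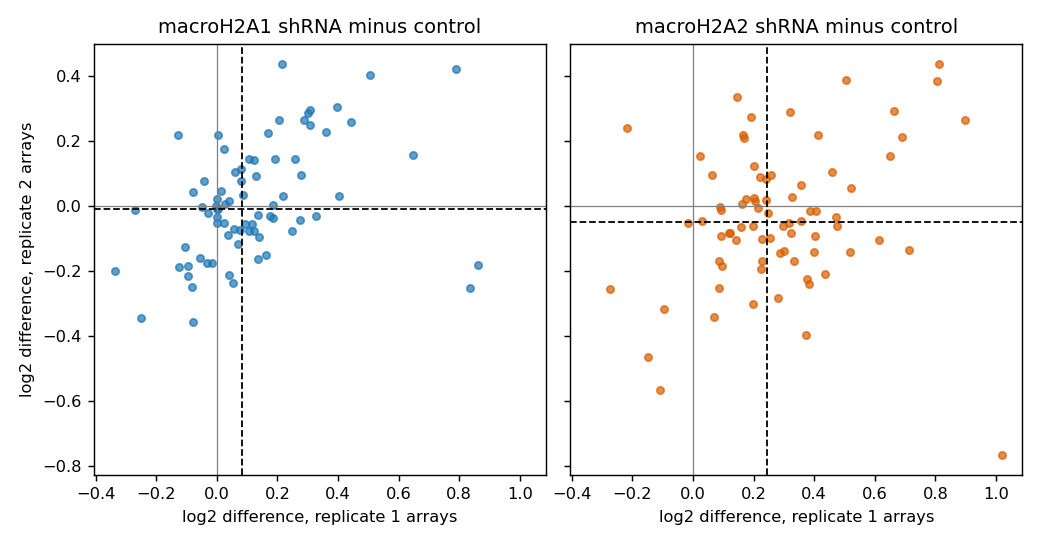
Log2 differences from control of the 76 genes within the replicate 1 arrays (x axis) and within the replicate 2 arrays (y axis), 1 panel a hairpin line, with dashed lines at the medians. The macroH2A2 shRNA points lie to the right of 0 for 70 genes and above 0 for 29.

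Large and small subunit symbols had similar values. For macroH2A1 shRNA against control 32 of 47 Mrpl genes and 17 of 29 Mrps genes were above 0, with medians of 0.030 and 0.029. For macroH2A2 shRNA these were 39 of 47 and 23 of 29, with medians of 0.097 and 0.13. Of the 44 genes for proteins with a counterpart in the bacterial ribosome, 38 were above control in macroH2A2 shRNA with a median of 0.14, and 17 had arrays wholly above control while 1 had them wholly below, where 15.0% and 18.4% of all genes did. Of the 28 genes for proteins added in mitochondria, 21 were above control with a median of 0.077. Of these 28 genes, 2 lay wholly above control and 3 wholly below, both smaller shares than over all genes. In macroH2A1 shRNA the first set had 32 of 44 above 0 with a median of 0.066, and the second 15 of 28 with a median of 0.018. The remaining 4 genes, Mrpl55, Mrpl58, Mrps28 and Mrps36, were in neither list. A difference between these classes was not tested.

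Among the large subunit genes Mrpl14, Mrpl2 and Mrpl20 had both macroH2A hairpin lines wholly above control. Mrpl14 encodes a counterpart of a bacterial protein at the face where the subunits join. Its signals were 375.3 and 508.3 in control, 660.4 and 685.8 in macroH2A1 shRNA and 670.3 and 692.5 in macroH2A2 shRNA. All 4 macroH2A hairpin arrays were above both control arrays, and the macroH2A hairpin lines overlapped each other. The log2 difference was 0.61 (SE 0.17) for macroH2A1 shRNA, 1.52-fold, with a limma adjusted p of 0.880, and 0.62 for macroH2A2 shRNA, 1.54-fold, with an adjusted p of 0.929. With the block these were the smallest adjusted p values of all 76 genes, 0.171 and 0.156, and did not pass.

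Mrpl2 encodes a protein next to the peptidyl transferase centre, where peptide bonds are formed. Its signals were 645.6 and 664.6 in control, 923.8 and 883.0 in macroH2A1 shRNA and 923.8 and 872.9 in macroH2A2 shRNA. The control arrays were close together and every other array was higher. The log2 difference was 0.45 (SE 0.12) in both lines, 1.37-fold and 1.36-fold, with limma adjusted p values of 0.880 and 0.929. Mrpl20 encodes a protein whose bacterial counterpart is needed early in assembly of the large subunit in Escherichia coli. Its signals were 544.4 and 695.6 in control, 721.9 and 861.9 in macroH2A1 shRNA and 964.0 and 911.6 in macroH2A2 shRNA. The 3 lines did not overlap, with control lowest and macroH2A2 shRNA highest. The differences from control were 0.35 (SE 0.16) and 0.59, the latter 1.51-fold with a limma adjusted p of 0.929.

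Mrpl12 forms part of the stalk that recruits translation factors and also binds the mitochondrial RNA polymerase. It had signals of 1329.1 and 1759.0 in control, 1626.8 and 2113.2 in macroH2A1 shRNA and 2156.1 and 2039.0 in macroH2A2 shRNA. The macroH2A2 shRNA arrays were above both control arrays, whereas the macroH2A1 shRNA arrays overlapped them. The log2 differences were 0.28 and 0.45 (SE 0.18), the latter with a limma adjusted p of 1. Mrpl48, a mitochondria-specific protein of the large subunit, had signals of 311.0 and 441.7 in control, 416.3 and 451.7 in macroH2A1 shRNA and 501.4 and 544.6 in macroH2A2 shRNA. Only the macroH2A2 shRNA arrays were clear of control, by 0.48 (SE 0.19) on the log2 scale.

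Other large subunit genes had smaller or less even values. Mrpl33 had signals of 769.2 and 903.6 in control, 1411.4 and 794.6 in macroH2A1 shRNA and 1215.4 and 1006.3 in macroH2A2 shRNA, with 1 macroH2A1 shRNA array far above control and the other within its range. Mrpl54 had 309.2 and 246.3 in control, 385.1 and 303.6 in macroH2A1 shRNA and 330.6 and 230.1 in macroH2A2 shRNA, and was lower on replicate 2 in every line. Mrpl1, which encodes the protein of the mobile stalk beside the exit site for tRNA, had 113.8 and 130.1 in control, 106.8 and 98.1 in macroH2A1 shRNA and 120.1 and 99.3 in macroH2A2 shRNA, lower than control in the former line by 0.22 (SE 0.19) on the log2 scale. The dim probe set of Mrpl37 read 157.8 and 176.4, 159.5 and 182.6, and 196.3 and 158.1 in the same order, with the lines overlapping throughout.

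The probe sets with the 3 highest signals of this group, those of Mrpl51, Mrpl39 and Mrpl13, differed little between lines. Next in signal came those of Mrpl12 and Mrps14, whose macroH2A2 shRNA arrays were wholly above control, by 0.45 (SE 0.18) and 0.18 (SE 0.11) on the log2 scale. Mrpl51, a mitochondria-specific protein, had signals of 3513.2 and 3783.6 in control, 3650.3 and 3210.8 in macroH2A1 shRNA and 4115.4 and 3523.1 in macroH2A2 shRNA, with log2 differences of -0.090 and 0.062 (SE 0.12). Mrpl39 had 1858.2 and 2239.7 in control, 2115.2 and 2180.4 in macroH2A1 shRNA and 2141.6 and 2260.8 in macroH2A2 shRNA, with differences of 0.073 and 0.11 (SE 0.13). Mrpl13 had 1593.3 and 2027.0 in control, 1803.1 and 1982.1 in macroH2A1 shRNA and 1987.7 and 1954.5 in macroH2A2 shRNA, with differences of 0.072 and 0.13 (SE 0.14). In each of the 3 the arrays of the lines overlapped, and the 95% intervals of both differences held 0. Signals of different probe sets cannot be set against each other, since each probe has its own response, so these values give no order of levels between genes.

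Among the genes with Mrps symbols, Mrps9, Mrps18a and Mrps21 had both macroH2A hairpin lines above control. Mrps9 encodes a small subunit protein whose bacterial counterpart reaches the tRNA in the peptidyl site. It had signals of 420.4 and 367.1 in control, 490.5 and 502.7 in macroH2A1 shRNA and 528.6 and 451.7 in macroH2A2 shRNA, with log2 differences of 0.33 and 0.30 (SE 0.15). Mrps21 had 978.8 and 971.4 in control, 1130.7 and 1168.2 in macroH2A1 shRNA and 1126.6 and 1057.8 in macroH2A2 shRNA, with differences of 0.23 and 0.16 (SE 0.12). Every macroH2A hairpin array of these genes was above both control arrays, and every limma adjusted p was 1. Mrps6 had signals of 590.0 and 1020.5 in control, 933.6 and 1139.4 in macroH2A1 shRNA and 1112.2 and 1229.6 in macroH2A2 shRNA. The 2 control arrays of Mrps6 were far apart, and the difference of 0.58 (SE 0.24) for macroH2A2 shRNA, with a limma adjusted p of 1, was 0.90 within replicate 1 and 0.27 within replicate 2.

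The 3 paralogs Mrps18a, Mrps18b and Mrps18c derive from 1 bacterial protein of the small subunit, and despite its symbol the product of Mrps18a sits in the large subunit. Mrps18a had signals of 601.7 and 702.8 in control, 749.3 and 865.7 in macroH2A1 shRNA and 805.5 and 820.6 in macroH2A2 shRNA, all 4 macroH2A hairpin arrays above control, with log2 differences of 0.30 and 0.32 (SE 0.14). Mrps18b had 298.6 and 323.7, 316.3 and 342.1, and 416.1 and 349.2 in the same order, and only its macroH2A2 shRNA arrays were clear of control, by 0.28 (SE 0.16). Mrps18c had 738.1 and 847.6, 808.4 and 904.3, and 831.2 and 982.7, with the lines overlapping and differences of 0.11 and 0.19 (SE 0.15). The intervals of all 3 overlapped widely, and a difference between the paralogs was not tested.

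**Figure D4:**
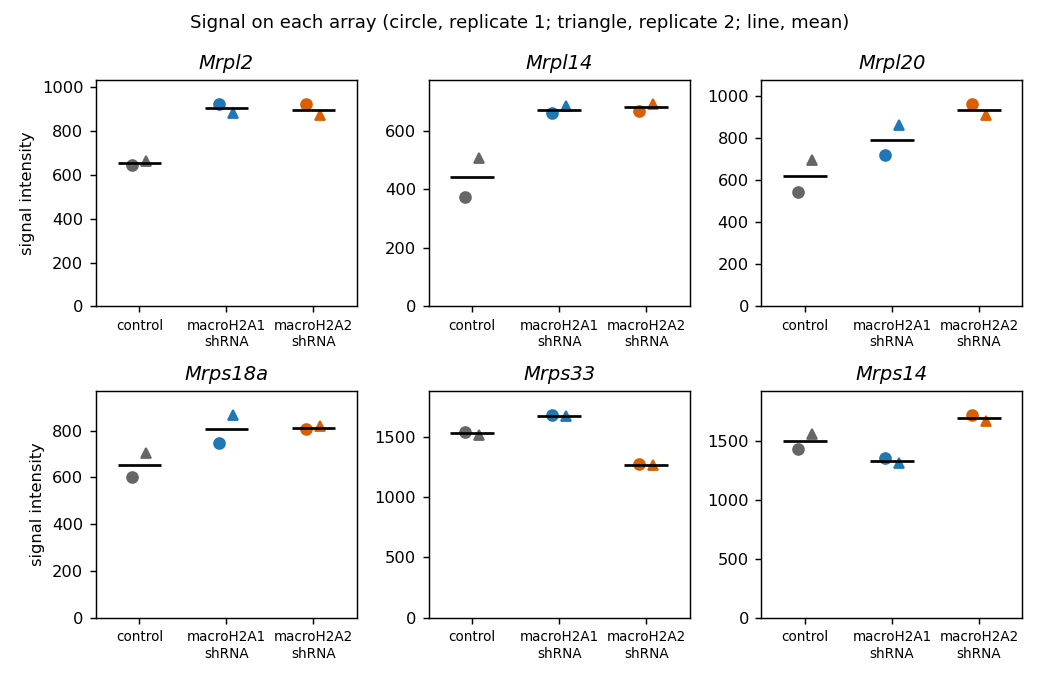
Signal intensity on a linear axis from 0 for 6 genes on each array, with circles for replicate 1, triangles for replicate 2 and lines at the mean of each line's 2 arrays. Both macroH2A hairpin lines lie above control for Mrpl2, Mrpl14, Mrpl20 and Mrps18a, and the macroH2A hairpin lines lie on opposite sides of control for Mrps33 and Mrps14.

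The genes Mrps33 and Mrps14 differed in opposite directions from control in the 2 macroH2A hairpin lines. Mrps33, a mitochondria-specific small subunit protein, had signals of 1538.6 and 1514.0 in control, 1676.3 and 1672.2 in macroH2A1 shRNA and 1270.2 and 1264.7 in macroH2A2 shRNA. The 2 arrays of each line nearly coincided and the 3 lines did not overlap. The macroH2A2 shRNA line was below the macroH2A1 shRNA line by a log2 difference of -0.40 (SE 0.11) with a limma adjusted p of 1, or 0.505 with the block. Mrps14, whose bacterial counterpart lies in the head of the small subunit, had 1434.9 and 1561.9 in control, 1354.9 and 1311.4 in macroH2A1 shRNA and 1717.8 and 1670.3 in macroH2A2 shRNA. Its order was the reverse of that of Mrps33, with a log2 difference of 0.34 (SE 0.11) between the macroH2A hairpin lines and a limma adjusted p of 1. When all tested probe sets of Mrps14 were averaged, its macroH2A2 shRNA difference from control was -0.027 in place of 0.18. Further genes with macroH2A2 shRNA arrays wholly above macroH2A1 shRNA were Mrpl57, at 1011.4 and 954.9 against 869.6 and 817.2, Mrps35, at 546.3 and 496.5 against 399.8 and 467.3, and Mrpl23, at 779.1 and 853.4 against 717.0 and 712.5. The control arrays of these genes read 899.8 and 818.6, 409.7 and 530.2, and 745.2 and 798.3. Their log2 differences between the macroH2A hairpin lines were 0.22 (SE 0.13), 0.26 (SE 0.17) and 0.19 (SE 0.13).

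Lower values than control were fewer. Mrps5, a small subunit protein with a bacterial counterpart near the mRNA entrance, had signals of 193.0 and 223.2 in control, 149.4 and 192.3 in macroH2A1 shRNA and 179.5 and 176.1 in macroH2A2 shRNA. It was the single gene of the 76 whose arrays lay below control in both lines, by -0.27 and -0.21 (SE 0.18) on the log2 scale, and 8.07% of all genes did so. Mrps30 and Mrpl46, chosen after their values were seen, had macroH2A2 shRNA arrays wholly below control. Mrps30 read 389.8 and 484.5 in control, 356.2 and 423.0 in macroH2A1 shRNA and 360.7 and 321.9 in macroH2A2 shRNA, a log2 difference of -0.34 for the latter. Mrpl46 read 300.4 and 365.7, 278.0 and 333.4, and 269.4 and 260.8 in the same order, a difference of -0.31. Mrps28, also chosen after its values were seen, had the lowest difference in macroH2A1 shRNA, -0.30 (SE 0.20). It read 610.4 and 736.9 in control, 510.3 and 577.0 in macroH2A1 shRNA and 795.8 and 555.4 in macroH2A2 shRNA. It was 1 of the 8 genes wholly below control in macroH2A1 shRNA, where 16.8% of all genes were. Mrps27, a protein of the pentatricopeptide repeat family that binds RNA, had 108.1 and 141.4 in control, 118.4 and 135.4 in macroH2A1 shRNA and 174.0 and 130.2 in macroH2A2 shRNA, with overlapping lines.

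Mrps36 carries a ribosomal symbol, although its product has since been described as a subunit of the alpha-ketoglutarate dehydrogenase complex. Its signals were 550.8 and 1081.9 in control, 996.7 and 906.2 in macroH2A1 shRNA and 1133.1 and 629.4 in macroH2A2 shRNA. The arrays of the control and macroH2A2 shRNA lines differed widely in opposite directions, so the log2 difference of macroH2A2 shRNA from control was 1.02 within replicate 1 and -0.77 within replicate 2. It had the largest standard error of the 76 genes, 0.34.

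Altogether 8 genes, Mrpl2, Mrpl14, Mrpl20, Mrpl27, Mrpl34, Mrps9, Mrps18a and Mrps21, had all 4 macroH2A hairpin arrays above both control arrays, where 6.79% of all genes did. Of these Mrpl27 and Mrpl34 were named after their values were seen. Mrpl27 had signals of 1064.8 and 1245.9 in control, 1276.0 and 1377.6 in macroH2A1 shRNA and 1338.8 and 1269.5 in macroH2A2 shRNA, and Mrpl34 had 616.3 and 611.8, 695.6 and 716.8, and 706.5 and 742.6. The log2 differences of both were small in either line, from 0.18 to 0.23. Over the 76 genes 45 were above control in both lines and 10 below in both.

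Probe sets of 1 gene did not always give the same value. For Mrps5 the tested probe sets differed by up to 0.98 in the log2 difference from control, for Mrpl15 by 0.91, for Mrpl54 by 0.76 and for Mrpl33 by 0.75. Other named genes had gaps of 0.63 (Mrps14), 0.54 (Mrps9), 0.51 (Mrpl48) and 0.47 (Mrpl13). For every gene named in this paragraph the gap was wider than its differences from control by the brightest probe set, which alone stood for the gene. The brightest probe set of Mrpl15 gave 0.023 for macroH2A1 shRNA and 0.097 for macroH2A2 shRNA, and another of its 7 tested probe sets, with a mean signal of 185.5, gave -0.55 and -0.58. The second probe sets of Mrpl33 and Mrpl54 had mean signals of 11.6 and 15.3, close to the filter at 10.4. For Mrps5 the probe set with a mean signal of 53.7 gave -0.51 and -0.67, on the same side as the brightest, whereas those with mean signals of 24.0 and 16.9 gave -0.22 and -0.19 for macroH2A1 shRNA but 0.16 and 0.31 for macroH2A2 shRNA.

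On chromosome 17, Mrpl14, Mrps18a and Mrpl2 lie close together, which was looked at after their values were seen. In the gene order of RefSeq for assembly GRCm38.p6 they are the first, the fourth and the last of 21 tested genes. Of the 18 genes between them 6 were above control in both macroH2A hairpin lines and 8 below in both, 1 lay wholly above control in both and 2 wholly below. Some neighbours were dim, among them the 2 wholly below control, 1600014C23Rik and Gm9706, with mean signals of 30.7 and 24.0. The 3 ribosomal genes had mean signals of 599 to 819. The medians of these neighbours were -0.049 in macroH2A1 shRNA and -0.0018 in macroH2A2 shRNA, while the 3 ribosomal genes had 0.30 to 0.61 and 0.32 to 0.62. The stretch was chosen to begin at Mrpl14 and end at Mrpl2. Mrpl18, Mrpl28, Mrps10, Mrps18b and Mrps34 also lie on chromosome 17, outside it, and none was wholly above control in both lines. Their differences were 0.15, 0.0053, -0.0051, 0.078 and 0.018 in macroH2A1 shRNA, and 0.29, 0.071, -0.045, 0.28 and 0.068 in macroH2A2 shRNA. Between Mrpl14 and Mrps18a lies Vegfa, which encodes a vascular growth factor and had -0.66 and -0.84 (SE 0.48). Its arrays overlapped those of control in both lines.

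**Figure D5:**
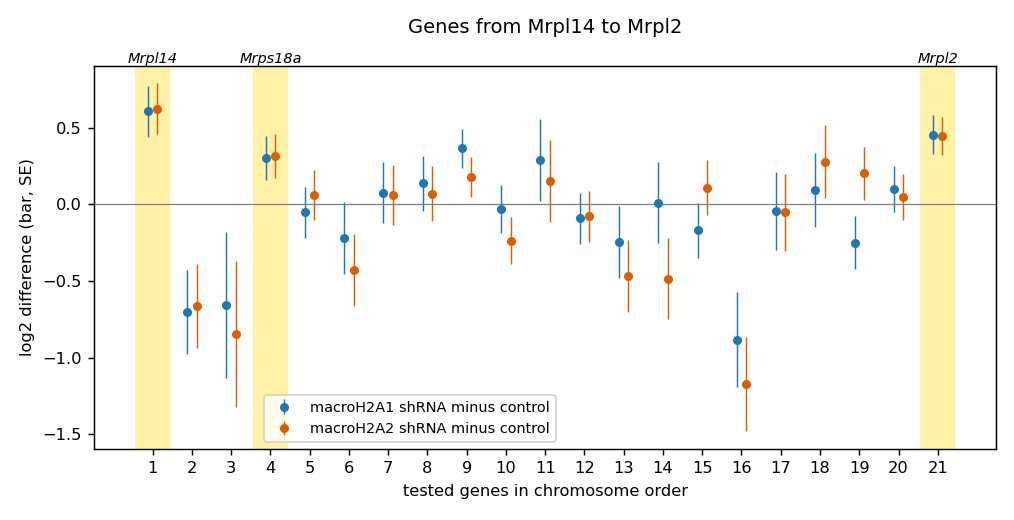
Log2 differences from control with standard errors for the 21 tested genes from Mrpl14 to Mrpl2 in chromosome order, blue for macroH2A1 shRNA and orange for macroH2A2 shRNA, with the ribosomal genes shaded. Mrpl14, Mrps18a and Mrpl2 lie above 0 in both lines, with neighbours on either side of 0 between them.

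The promoter windows of these 3 genes are shown because the genes lie near each other and had all macroH2A hairpin arrays above control. The sequences are RefSeq's, on GRCm38.p6 and the plus strand, from 250 bases before to 50 bases after a transcript's start, and capitals mark the motifs searched. Mrpl2 has 3 annotated starts, of which the first is shown, at chr17:46645971-46646270. Mrpl14 is at chr17:45686099-45686398 and Mrps18a at chr17:46110754-46111053.
Mrpl2: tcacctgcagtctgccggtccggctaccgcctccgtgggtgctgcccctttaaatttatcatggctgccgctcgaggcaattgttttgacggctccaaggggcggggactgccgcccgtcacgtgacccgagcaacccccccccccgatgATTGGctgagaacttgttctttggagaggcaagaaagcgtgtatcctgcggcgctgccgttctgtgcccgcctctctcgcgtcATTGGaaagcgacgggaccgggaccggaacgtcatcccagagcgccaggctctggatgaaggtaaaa
Mrpl14: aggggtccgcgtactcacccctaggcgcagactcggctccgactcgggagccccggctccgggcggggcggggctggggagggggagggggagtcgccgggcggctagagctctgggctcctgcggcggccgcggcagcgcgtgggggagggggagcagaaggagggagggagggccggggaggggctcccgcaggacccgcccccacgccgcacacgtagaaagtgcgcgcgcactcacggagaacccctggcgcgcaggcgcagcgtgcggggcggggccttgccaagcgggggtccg
Mrps18a: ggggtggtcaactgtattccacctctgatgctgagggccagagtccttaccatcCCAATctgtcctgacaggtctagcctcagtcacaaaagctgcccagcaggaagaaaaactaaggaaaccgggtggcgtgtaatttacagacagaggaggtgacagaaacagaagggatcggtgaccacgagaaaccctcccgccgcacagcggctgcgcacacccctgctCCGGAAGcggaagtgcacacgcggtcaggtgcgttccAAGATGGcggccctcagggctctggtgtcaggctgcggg

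Of the motifs searched on both strands, which were GCATGCG (the core of the NRF1 motif), CCGGAAG (ETS family, bound by GABPA), AAGATGG (YY1) and CCAAT (NF-Y), the Mrpl2 window held CCAAT on the minus strand from bases 151 and 234. The Mrps18a window held CCAAT from base 55, CCGGAAG from base 225 and AAGATGG from base 262, and the Mrpl14 window held none of the 4. NRF1 and GABPA are known as regulators of nuclear genes for mitochondrial proteins. Promoter windows were found for 67 of the 76 genes. CCGGAAG was in 37.3% of these, beside 20.1% of the tested genes with a window and 9.93% of all genes with one, and GCATGCG was in 11.9% beside 7.35% and 4.01%. AAGATGG was in 19.4% beside 8.33% and 7.28%, and CCAAT in 38.8% beside 42.9% and 41.1%. CCGGAAG ends in the letters that begin AAGATGG, so a single stretch can hold both, and a match is a description of these letters and not a site shown to be bound.

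The genes that act with the mitochondrial ribosome did not pass the test either, and in the first 6 lists described here limma called 0 genes against control, with or without the block. Mitoribosomal proteins with other symbols were represented by 4 genes, of which 1 was above control in macroH2A1 shRNA and 2 in macroH2A2 shRNA, with medians of -0.070 and 0.026. Chchd1, of the small subunit, had signals of 993.3 and 1432.7 in control, 1295.7 and 1282.4 in macroH2A1 shRNA and 1560.3 and 1453.4 in macroH2A2 shRNA, and its macroH2A2 shRNA arrays were above both others. Dap3, Ptcd3 and Gadd45gip1 had log2 differences of -0.12, -0.11 and -0.034 in macroH2A1 shRNA, and -0.081, -0.037 and 0.088 in macroH2A2 shRNA, each smaller than its standard error of 0.12 to 0.17.

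Of 11 mitochondrial translation factors 2 were above control in macroH2A1 shRNA, with a median of -0.13, and 3 in macroH2A2 shRNA, with a median of -0.030. Tufm, the elongation factor that brings aminoacyl-tRNA to the ribosome, read 275.2 and 332.0 in control, 319.0 and 373.0 in macroH2A1 shRNA and 458.6 and 346.1 in macroH2A2 shRNA, while Gfm1, the translocation factor, was lower by -0.28 (SE 0.19) in macroH2A1 shRNA. For Mtif2 the difference was -0.19 in macroH2A1 shRNA and for Mtrf1l -0.18 in macroH2A2 shRNA. Of 16 mitochondrial aminoacyl-tRNA synthetases 6 and 10 were above control, with medians of -0.034 and 0.065. Wars2 and Sars2 had 0.43 (SE 0.23) and 0.31 (SE 0.22) in macroH2A2 shRNA, and Lars2 and Vars2 -0.20 and -0.38 in macroH2A1 shRNA. Of 22 genes of ribosome assembly and rRNA modification 10 and 12 were above control, with medians of -0.0064 and 0.068, among them the rRNA methyltransferase Nsun4 with 0.37 (SE 0.19) and 0.26, the methyltransferase Tfb1m with -0.26 in macroH2A1 shRNA and the small subunit assembly factor Eral1 with 0.25 in macroH2A2 shRNA.

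Of 9 genes of mitochondrial DNA transcription and RNA stability 4 and 5 were above control, with medians of -0.0032 and 0.034. Tefm, the mitochondrial transcription elongation factor, had signals of 173.0 and 154.2 in control, 208.4 and 218.8 in macroH2A1 shRNA and 224.0 and 239.5 in macroH2A2 shRNA. All 4 macroH2A hairpin arrays were above control, by 0.36 (SE 0.16) and 0.47 on the log2 scale. Lrpprc, which stabilises mitochondrial mRNA, had a difference of 0.38 (SE 0.23) in macroH2A2 shRNA, and Pnpt1 -0.25 in macroH2A1 shRNA. Of 10 regulators of mitochondrial biogenesis 7 and 8 were above control, with medians of 0.044 and 0.077, while Ppargc1a, a coactivator that drives mitochondrial gene expression, read 401.3 and 456.6 in control, 284.0 and 350.1 in macroH2A1 shRNA and 312.8 and 343.3 in macroH2A2 shRNA. Both macroH2A hairpin lines lay below control for Ppargc1a, by -0.42 and -0.37 (SE 0.17), opposite to the list's median. Myc had 0.18 in macroH2A1 shRNA and Gabpb1 0.25 in macroH2A2 shRNA. After quantile normalization the medians below 0 turned positive for the synthetases (0.0011), the assembly genes (0.040) and the mitochondrial transcription genes (0.013) in macroH2A1 shRNA, and for the translation factors in macroH2A2 shRNA (0.016).

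The cytosolic ribosomal protein genes and the genes of the respiratory chain and ATP synthase are given for comparison. Of 48 cytosolic ribosomal protein genes 43 were above control in macroH2A1 shRNA, with a median of 0.24, and 40 in macroH2A2 shRNA, with a median of 0.10. Of 71 respiratory genes 67 and 65 were above control, with medians of 0.16 and 0.13. With the block limma called 1 gene of each of these lists higher in either comparison, and without it 0. After quantile normalization the medians of the cytosolic genes were 0.045 and 0.024, those of the respiratory genes 0.056 and 0.070, and those of the mitochondrial ribosomal protein genes 0.027 and 0.093. After quantile normalization 48 of the 76 mitochondrial ribosomal protein genes were above control in macroH2A1 shRNA, beside 51.9% of all genes, and 59 in macroH2A2 shRNA, beside 52.5%, while 51 were higher in macroH2A2 shRNA than in macroH2A1 shRNA, beside 51.0%. With each array centred on its median 62 and 70 of the 76 were above control, with medians of 0.083 and 0.18, while the medians of all tested genes were 0.043 and 0.057. This centring put 7083 and 7351 of all 12088 tested genes above control. Of the 7421 genes at least as bright as the dimmest of the 76, it put 4849 and 5021 above, with medians of 0.068 and 0.085. Since the RNA came from whole cultures, fewer cells of a type and less RNA per cell cannot be told apart.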

How the data were processed

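For each probe set the authors deposited 1 signal intensity, not log-transformed. The submitters' processing notes name MAS5. Its version and the genome build are not given in the sources used here. Per the labels' protocols, total RNA was amplified and biotin-labelled by in vitro transcription from an oligo-dT primer. The 45101 probe sets include 64 controls, which were left out. Names came from the platform annotation, and 34945 probe sets had 1 symbol, 932 several and 9160 none. Of the probe sets with a ribosomal symbol, 156 had that symbol alone and 147 of them were tested. All 76 member genes matched a current gene record by their Entrez identifier.

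Values were analysed as log2(signal + 16), so folds are on that scale and understate changes of dim probe sets. Probe sets with a mean signal at or above the 40th percentile, 10.4, were tested. One limma fit (limma 3.58.1, R 4.3.3, lmFit, then eBayes with its trend option) over all 6 arrays had 3 group means, 3 residual and 4.90 prior degrees of freedom, and two-sided p-values were adjusted by Benjamini-Hochberg over all tested probe sets. The fit was tested on simulated data. The members and lists were chosen with earlier results of these data known. The genes named are, per comparison, the 6 with the smallest p among those with groups that do not overlap, the 5 brightest and 3 dimmest, the 4 with the widest gaps between probe sets, the Mrps18 paralogs, Mrpl12 and Mrps36, and up to 2 genes per comparison of each other list. Mitoribosomal proteins with other symbols were all named.

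The labels number the replicates of each line 1 and 2 without naming a batch. Replicate 1 minus replicate 2 differences correlated between lines over all tested probe sets with r = 0.576, 0.372 and 0.415, so the numbers were taken to pair the arrays. These correlations were taken without quantile normalization. The median signals of replicates 1 and 2 were 24.6 and 15.1 in control, 20.6 and 15.4 in macroH2A1 shRNA and 19.5 and 16.2 in macroH2A2 shRNA. Whether that difference gave the correlations was not tested. Over the 76 genes alone r was 0.468, 0.029 and 0.276, so for control and macroH2A2 shRNA the numbers paired these genes hardly at all. The fit with this block had 2 residual and 9.09 prior degrees of freedom. Alternatives changed the block, normalization, pseudocount, filter, probe set rule and replicates. Precision is limited by 2 arrays a line.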

Additional observations from a re-analysis of the deposited data

Results flagged for a closer look

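For Mrps33 both macroH2A1 shRNA arrays lay above and both macroH2A2 shRNA arrays below the 2 control arrays, so that the lines lay on opposite sides of control. The log2 difference of macroH2A2 shRNA from macroH2A1 shRNA was -0.40 (SE 0.11), and its limma adjusted p was 1, or 0.505 with the replicate block. For Mrps14 the lines lay on the opposite sides by its brightest probe set, macroH2A1 shRNA below and macroH2A2 shRNA above control. The difference was 0.34 (SE 0.11), and its limma adjusted p was 1, or 0.609 with the block. The tested probe sets of Mrps14 differed by up to 0.63 in the log2 difference from control. Averaging them changed the sign of its macroH2A2 shRNA difference from control.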

How the results depend on the processing

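In each of the 16 alternatives 0 of the 76 genes were called, in all 3 comparisons. Over all probe sets the main fit called 0, and the fit with the replicate block called 52 for macroH2A1 shRNA against control, 39 for macroH2A2 shRNA against control and 1 between the hairpin lines. Quantile normalization with the block called 22, 16 and 1, and every other alternative called 0. The block changed no call among the 76 genes. Leaving out 1 array at a time put the count of genes above control between 27 and 60 for macroH2A1 shRNA. The lower end is without control replicate 1, where the median also changed sign. The lone array of a line is then assumed to vary like those of the other lines.

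Some of the named genes changed sign, among them Mrpl33, Mrpl54 and Mrps36 with main values of 0.34, 0.29 and 0.29 for macroH2A1 shRNA and Mrps14 with 0.18 for macroH2A2 shRNA, and the causes were not tested. For macroH2A1 shRNA Mrpl15 was -0.011 after quantile normalization, with or without the block, and -0.12 when probe sets with _x_at and _s_at endings were left out. Averaging a gene's probe sets gave -0.040 for Mrpl13, -0.055 for Mrpl15, -0.035 for Mrpl33 and -0.085 for Mrpl54. For macroH2A2 shRNA Mrpl51 was -0.037 after quantile normalization, with or without the block. Averaged probe sets gave -0.040 for Mrpl13, -0.027 for Mrps14 and 0.028 for Mrpl54. Mrpl54, at -1.44e-05 in the main fit, was 0.014 after quantile normalization, with or without the block, 0.070 with median centring and 0.0015 with a pseudocount of 64. Leaving out 1 array gave, for macroH2A1 shRNA, -0.10 to 0.24 for Mrpl13, -0.087 to 0.13 for Mrpl15, -0.068 to 0.75 for Mrpl33, -0.059 to 0.12 for Mrpl37, -0.060 to 0.21 for Mrpl39, -0.18 to 0.0017 for Mrpl51, -0.14 to 0.20 for Mrps27 and -0.18 to 0.77 for Mrps36. For macroH2A2 shRNA it gave -0.040 to 0.30 for Mrpl13, -0.012 to 0.21 for Mrpl15, -0.071 to 0.22 for Mrpl37, -0.025 to 0.24 for Mrpl39, -0.049 to 0.17 for Mrpl51, -0.25 to 0.25 for Mrpl54 and -0.35 to 0.60 for Mrps36.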
